A study of Rattus norvegicus with 16 samples.

Results

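The genes described here are 10 genes of fatty acid oxidation and its control in rat hippocampus, out of 26565 genes tested. They are Cpt1a, Cpt1b, Cpt2, Acadm, Acadl, Hadha, Acot1, Ucp2, Pdk4 and Ppara. Each was taken by its symbol through the RefSeq accession of its array probes, with the brightest probe standing for the gene, so that measured differences between groups played no part in the choice of probe. All 10 passed the filter on dim probes: 9 were well above background on all 16 arrays, and Pdk4 passed through the Fe day 15 arrays only.

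RNA was measured with 1-colour arrays, 1 array per animal, in the right hippocampus of 16 male Wistar rats that had cannula surgery at 5 weeks of age. The Fe groups received 1 µl of 100 mM ferric chloride in saline of pH 2.2 in the right amygdala, which sets off recurrent limbic seizures and models epilepsy after head injury, and were sampled 5, 15 or 30 days later (Fe day 5, Fe day 15 and Fe day 30, 4 rats each). The 4 controls received 1 µl of saline of the same pH and were sampled at day 15 only, so that age and the interval since infusion also set Fe day 5 and Fe day 30 rats apart from them. Seizure frequency was not measured in this model, per the series text, and all groups carried the cannula.

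Long-chain fatty acids enter mitochondria as carnitine esters. The CPT1 enzymes of the outer membrane form these esters and are the controlled step, CPT2 on the inner membrane turns them back into acyl-CoA, and the beta-oxidation spiral then shortens the chain. PPAR alpha, a fatty acid-sensing nuclear receptor, switches on many of these genes, and pyruvate dehydrogenase kinase 4 shifts the cell from glucose to fat by shutting down pyruvate entry. In brain, fatty acid oxidation is known mainly from astrocytes.

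The 75th percentile of the processed signal, to which each array was scaled, lay between 553 and 924, and 74.2% to 81.6% of the transcript spots of an array were well above background. Levels below are each gene's signal as a percent of that percentile on the same array, and differences are on the log2 scale with their standard errors from limma. Probes differ in how brightly they bind, so levels are compared between arrays and not between genes. Markers of neurons (9 of 10), astrocytes (8 of 10) and oligodendrocytes (10 of 10) passed the filter. The arrays of Fe day 5 replicates 2 and 3 and Fe day 30 replicate 3 stood apart in markers of choroid plexus (9 of 16 markers tested) and of meninges and fibroblasts (11 of 13). The summed choroid plexus signal ran from 912 to 3953 in Fe day 5, 642 to 898 in Fe day 15 and 501 to 32710 in Fe day 30 hippocampi, against 514 to 703 in controls. The summed meningeal signal ran from 2399 to 35160 in Fe day 5, 2674 to 4602 in Fe day 15 and 2493 to 30800 in Fe day 30, against 2237 to 2694 in controls, and no tested marker was at 0. Microglial markers (12 of 12 tested) were highest on Fe day 15 replicate 4, with a summed signal of 7624, and on Fe day 30 replicate 3, with 6798, against 3527 to 3813 in controls. Blood cell markers (5 of 7 tested) summed to 145 to 436 in Fe day 5, 145 to 405 in Fe day 15 and 104 to 474 in Fe day 30 hippocampi, against 117 to 159 in controls, and 5 of the 5 had a higher mean in each Fe group. The part of blood in the results below was not tested.

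None of the 10 genes passed a Benjamini-Hochberg adjusted p of 0.05 (limma) in any of the 6 comparisons between groups or in the F-test over the 4 groups. The same threshold called 0% of all genes at Fe day 5, 0% at Fe day 15 and 0.00753% at Fe day 30, each against controls. At an unadjusted p of 0.05, which no correction protects, 2 of the 10 genes passed at Fe day 5, beside 10.3% of all genes. At Fe day 15 it was 2 of 10, beside 11.5% of all genes, and 1 of these was Pdk4, which only its Fe day 15 arrays carried past the filter, and at Fe day 30 it was 1 of 10, beside 7.77%. Each count is within 1 gene of what these shares give for 10 genes. Between Fe days, 2 of 10, Pdk4 again among them, passed in Fe day 15 against Fe day 5 (7.2% of all genes), 1 in Fe day 30 against Fe day 15 (6.49%) and 1 in Fe day 30 against Fe day 5 (2.96%), and the F-test gave 2 of 10 (8.34%). The 5 differences from the controls are each described below with its value on every array. The median difference of the 10 genes from the controls was 0.067 at Fe day 5, 0.10 at Fe day 15 and 0.15 at Fe day 30, and that of all genes was −0.017, 0.0014 and −0.013. Without Fe day 15 replicate 4, the array highest in microglial markers, the Fe day 15 median of the 10 genes was 0.031.

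**Figure D1:**
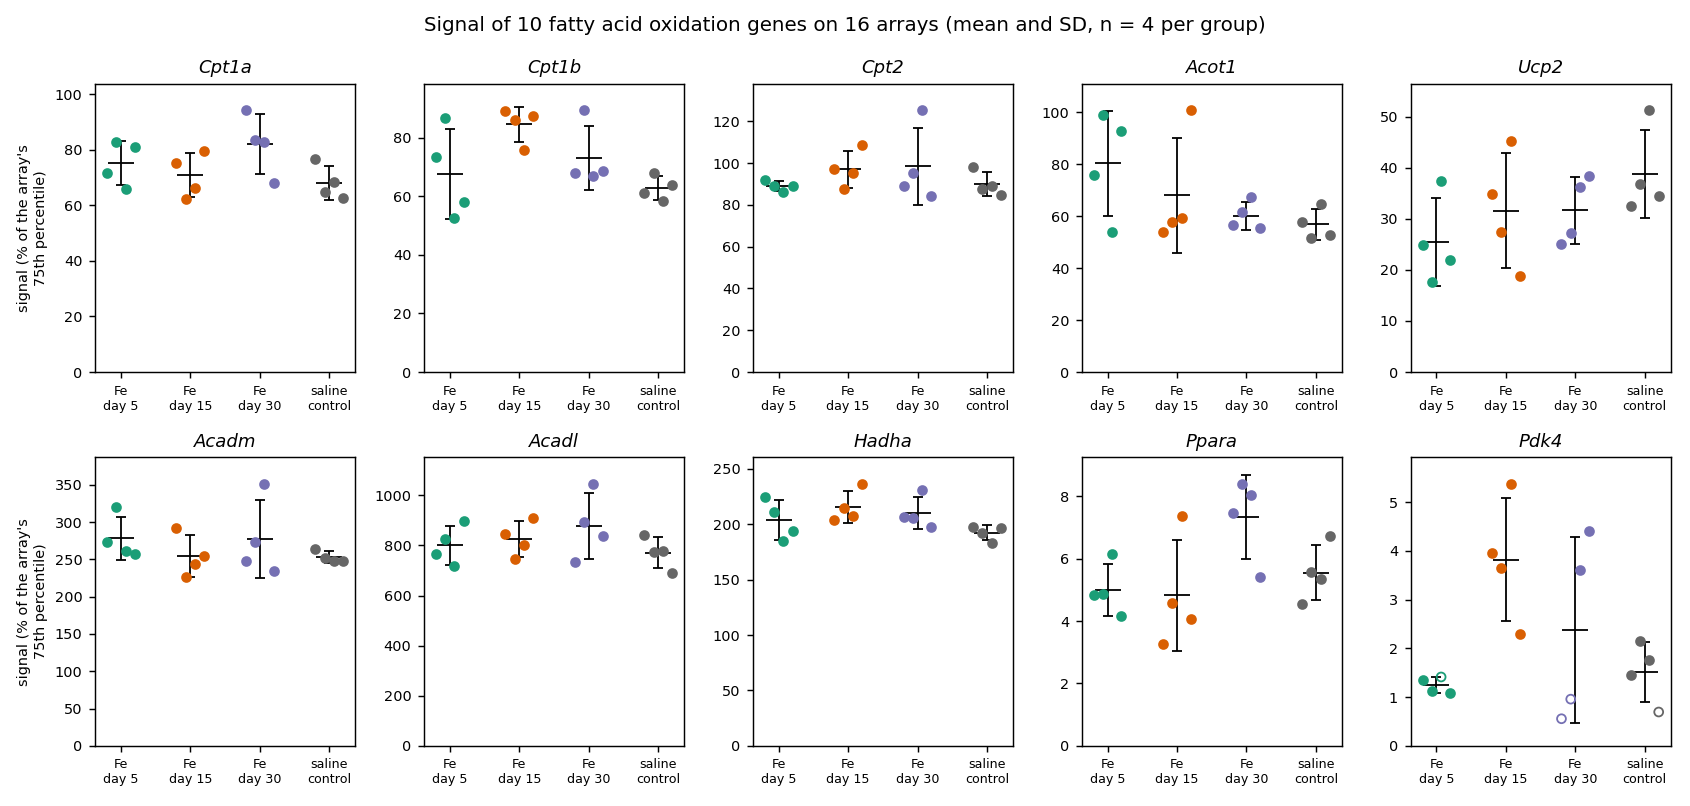
Signal of the 10 genes on the 16 arrays, as a percent of each array's 75th percentile (vertical axis, from 0), at Fe days 5, 15 and 30 and in saline controls. Points are arrays, open where the probe was not well above background, and bars are the mean and SD of 4 arrays; Pdk4 shows all 4 Fe day 15 arrays above all 4 controls and Fe day 30 split into 2 low and 2 high arrays.

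Pdk4 encodes pyruvate dehydrogenase kinase 4, which blocks the use of pyruvate by mitochondria and is raised in many tissues by fasting, PPAR alpha and glucocorticoids. It had the widest range of group means of the 10 genes. Its level was 3.95%, 3.64%, 5.38% and 2.31% on the Fe day 15 arrays, against 1.46%, 2.15%, 1.75% and 0.694% in controls. Every Fe day 15 array stood above every control, and 4.11% of all genes were separated in that direction. The fitted difference was 1.39 ± 0.56 on the log2 scale (SE, n = 4 per group), with an adjusted p of 0.386 in limma. It is given as a description: Pdk4 passed the filter only through the Fe day 15 arrays, where it is high, and 1 of the 4 controls, the lowest, was not well above background.

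At Fe day 5 Pdk4 was alike between animals, and at Fe day 30 it was not. On the Fe day 5 arrays it was at 1.35%, 1.12%, 1.41% and 1.09%, inside the control range. On the Fe day 30 arrays it was at 0.555%, 0.958%, 3.61% and 4.40%, with 2 animals at or below most controls and 2 animals at Fe day 15 levels. The probe was not well above background on the 2 low arrays or on Fe day 5 replicate 3. The sizes there, and the spread they enter, are therefore uncertain. The Fe day 30 difference from controls was 0.29 ± 0.56, and 97.6% of all genes had a smaller residual SD than Pdk4. Every Fe day 15 array exceeded every Fe day 5 array, a separation that 2.07% of all genes showed in that direction, and nothing is read from it for the same reason. The fitted difference was 1.57 ± 0.56 (adjusted p = 0.565 in limma), and with slide as a fixed block it was 0.62 ± 0.56. The order of the group means was Fe day 15, Fe day 30, control and Fe day 5, and no 2 neighbours in that order differed at an unadjusted p of 0.05.

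The Pdk4 probe was dim. It was well above background on 3 of 4 Fe day 5, 4 of 4 Fe day 15, 2 of 4 Fe day 30 and 3 of 4 control arrays. With another background correction (normexp with an offset of 50, which shrinks dim signals), the Fe day 15 difference was 0.25 ± 0.14.

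Array slides are a known batch here, because each of the 7 slides carried 2 or 3 of the arrays. On slides that held a control, Fe day 15 replicates 1 and 2 exceeded the control of their own slide in Pdk4 by 0.88 and 1.05 on the log2 scale. Replicate 3 was also higher than its slide's control, but that control was not well above background and no size is given. Fe day 30 replicates 3 and 4 exceeded their slide's control by 0.75 and 1.33, and these are the 2 high Fe day 30 arrays. The 2 low ones lay on slides 6 and 7, which held no control. With slide as a fixed block, the Fe day 15 difference from the controls was 1.45 ± 0.48 (adjusted p = 0.503 in limma). All 4 controls had the first position of their slide, and the high Fe day 30 arrays the fourth, and the part of position was not tested.

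**Figure D2:**
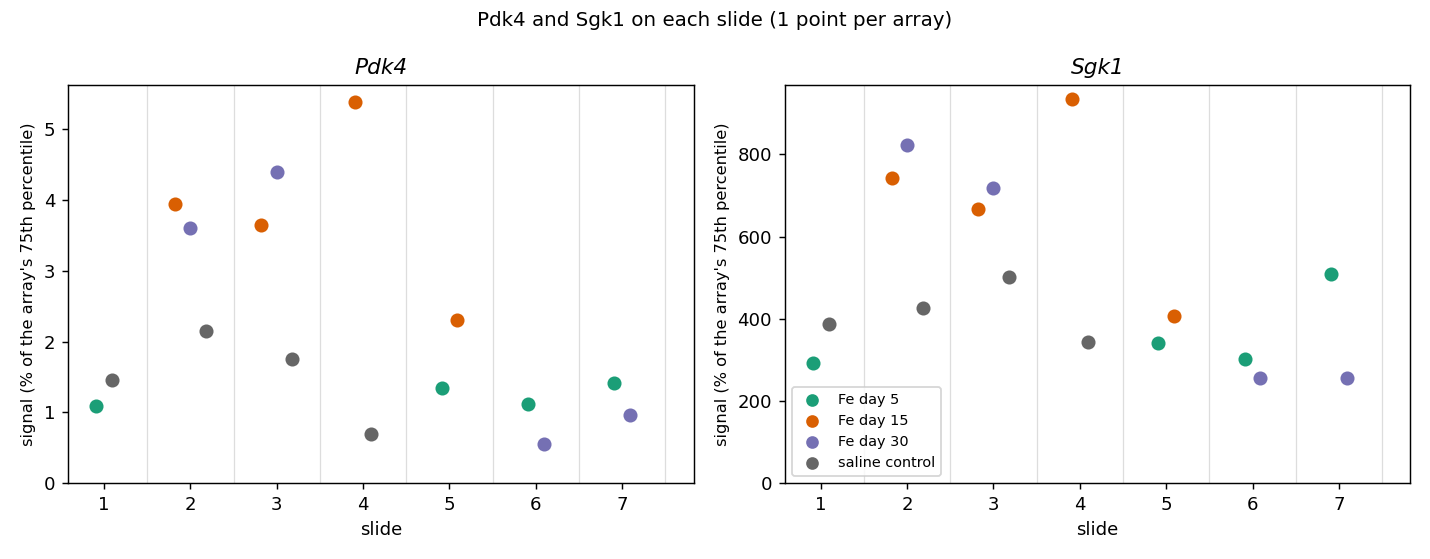
Signal of Pdk4 (left) and Sgk1 (right) as a percent of the array's 75th percentile, by slide (horizontal axis, 7 slides); each point is 1 array and colour is the group. Both genes are high on the Fe day 15 arrays of slides 2, 3 and 4 and on the Fe day 30 arrays of slides 2 and 3, and Fe day 30 arrays on slides 6 and 7 are low. Sgk1 was picked by its correlation with Pdk4 on these arrays.

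The genes with a symbol whose log2 signals followed Pdk4 most closely over the 16 arrays were Sgk1 (Pearson's r 0.922), Tob2 (0.846) and Cfap141 (0.842). These are descriptions over arrays that share slides and groups. The genes were picked by that correlation with Pdk4, which is high at Fe day 15. Their Fe day 15 differences and their low and high pairs below follow in part from the choice and are no separate evidence. Sgk1, a kinase gene known to respond to glucocorticoids, was at 742%, 666%, 935% and 406% on the Fe day 15 arrays, against 386%, 426%, 503% and 342% in controls. On the Fe day 30 arrays Sgk1 was at 257%, 255%, 822% and 717%, the same low pair and high pair as Pdk4. The Fe day 15 difference of Sgk1 was 0.68 ± 0.37 (unadjusted p = 0.0891, adjusted p = 0.492 in limma). Tob2, whose protein restrains cell proliferation, was at 67.0% and 65.8% on the same low pair and at 133% and 122% on the high pair. Cfap141 differed by 0.41 ± 0.10 at Fe day 15 (unadjusted p = 0.000925, adjusted p = 0.186).

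Other genes known to respond to glucocorticoids were looked at as a list of 10, of which 9 were tested and Sgk1 is 1. At Fe day 15, 8 of the 9 were above and 1 below the control mean, with a median of 0.22 beside 0.0014 for all genes. All 9 were set against the same controls, so their directions are not separate observations, and Sgk1 is also the gene closest to Pdk4. Their median level per array, relative to the control mean, overlapped: 0.0019 to 0.66 at Fe day 15, against −0.14 to 0.20 in controls. Of the 9, 2 passed an unadjusted p of 0.05 in limma, both higher, beside 11.5% of all genes, a share that gives about 1 of 9. Tsc22d3, which encodes the glucocorticoid-induced leucine zipper, was at 1060%, 1030%, 1230% and 984% in Fe day 15 hippocampi, against 660%, 940%, 900% and 592% in controls (0.50 ± 0.19, adjusted p = 0.358 in limma). These values did not overlap, a separation that 4.11% of all genes showed in that direction. Zbtb16 differed by 0.40 ± 0.19 (adjusted p = 0.432). Per1, a clock gene with a glucocorticoid-sensitive promoter, had the lowest F-test p of the list (0.00563, adjusted 0.477): it was at 90.6%, 95.5%, 95.1% and 97.4% at Fe day 5 and 133%, 125%, 151% and 116% at Fe day 15, against 110%, 120%, 108% and 118% in controls. None of the 9 passed the adjusted threshold. Time of day of tissue collection is not given in the sources used here, and its part in these values was not tested.

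The promoter of Pdk4 is shown because Pdk4 and its closest follower moved together across arrays, and that of Acot1 because it was the only 1 of the 8 member promoters on file to hold a glucocorticoid half-site. Both are RefSeq promoters of 300 bases on GRCr8, from 250 bases before to 50 after the gene start, 5′ to 3′ in the direction of the gene. Capitals mark the GC box GGGCGG and its reverse complement in Pdk4, and the reverse complement of AGAACA in Acot1.
Pdk4 (chr4:34568280-34568579, minus strand): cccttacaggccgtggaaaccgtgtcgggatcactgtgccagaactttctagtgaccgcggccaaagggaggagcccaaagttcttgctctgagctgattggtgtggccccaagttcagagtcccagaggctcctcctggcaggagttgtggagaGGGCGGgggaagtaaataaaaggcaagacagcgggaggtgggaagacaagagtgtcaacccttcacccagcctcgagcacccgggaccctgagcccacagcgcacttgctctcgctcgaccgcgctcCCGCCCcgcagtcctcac
Acot1 (chr6:109367024-109367323, plus strand): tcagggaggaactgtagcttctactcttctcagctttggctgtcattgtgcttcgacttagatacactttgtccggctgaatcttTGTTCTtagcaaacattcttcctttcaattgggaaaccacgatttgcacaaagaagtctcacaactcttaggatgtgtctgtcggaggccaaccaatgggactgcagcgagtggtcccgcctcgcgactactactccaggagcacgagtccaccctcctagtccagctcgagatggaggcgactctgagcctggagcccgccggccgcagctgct
The Pdk4 GC boxes start 95 bases before the gene start and at base 33 after it, and the Acot1 match starts 165 bases before the start. On either strand, AGAACA occurred in 20.7% of 33469 rat promoters of the same length and GGGCGG in 33.1%. GGGCGG was in 5 of the 8 member promoters, those of Pdk4, Cpt2, Acadm, Hadha and Ppara. The nuclear receptor half-site AGGTCA (16.2% of promoters), the PPAR response element (AGGNCA and again AGGNCA after a spacer of 1 base, 0.415%) and the forkhead site GTAAACA (3.78%) were in none of the 8. No entry for Cpt1b or Acadl was used. These letters say nothing about binding.

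The receptor gene Ppara was dim but well above background on every array. Its level was 4.83%, 4.86%, 6.15% and 4.15% in Fe day 5 hippocampi, 3.26%, 4.58%, 7.37% and 4.07% at Fe day 15, and 7.48%, 8.41%, 8.04% and 5.41% at Fe day 30, against 4.56%, 5.58%, 5.36% and 6.71% in controls. Of the 4 Fe day 30 arrays, 3 were the highest of all 16, and the fourth lay within the control range. Fe day 30 stood above Fe day 15 by 0.65 ± 0.22 (unadjusted p = 0.0102, adjusted p = 0.684 in limma) and above Fe day 5 by 0.55 ± 0.22 (unadjusted p = 0.0258, adjusted p = 1). The groups overlapped in both. Against controls the Fe day 30 difference was 0.39 ± 0.22 (unadjusted p = 0.0942), and with slide as a fixed block the difference from Fe day 15 was 0.69 ± 0.20. With normexp the Fe day 30 differences were 0.24 ± 0.16 from Fe day 15 (unadjusted p = 0.144), 0.32 ± 0.16 from Fe day 5 (unadjusted p = 0.0642) and 0.10 ± 0.16 from controls. Vascular markers were high against controls on the same 3 Fe day 30 arrays. The median level of 10 tested endothelial markers (of 12) relative to the control mean was 0.32, 0.57, 0.46 and 0.013 on Fe day 30 replicates 1 to 4, against −0.22 to 0.16 in controls. That of 7 tested pericyte and smooth muscle markers (of 9) was 0.47, 0.42, 0.42 and 0.095, against −0.12 to 0.20 in controls. Ppara on these arrays was at 0.44, 0.61, 0.55 and −0.025 relative to the control mean. Fe day 5 arrays ran from −0.11 to 0.46 in endothelial and from 0.047 to 0.18 in pericyte and smooth muscle markers. Ppara on Fe day 5 replicates 1 to 4 was at −0.19, −0.18, 0.16 and −0.41. The part of vascular RNA in the Ppara values was not tested. The summed signal ran from 1172 to 1666 for endothelial and 1489 to 1775 for pericyte and smooth muscle markers at Fe day 30, against 1060 to 1447 and 1362 to 1550 in controls.

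The genes closest to Ppara over the 16 arrays were Slc38a6 (r 0.82), Atp2a1 (0.807) and Ribc2 (0.778), correlations given with no test. They were picked by that correlation, so their differences below follow in part from the choice and are no separate evidence. Ribc2, a gene of ciliary microtubules, differed by 0.79 ± 0.30 at Fe day 30 against controls (adjusted p = 0.633 in limma), and Atp2a1, a calcium pump gene, by 0.28 ± 0.18 (adjusted p = 0.687). Ribc2 was highest on Fe day 30 replicate 3 (25.1%), where 4 tested ependymal markers (of 7) summed to 1288, against 184 to 273 in controls; the part of ependymal RNA was not tested. Slc38a6, an amino acid transporter gene, did not share that Fe day 30 difference in size: 0.13 ± 0.26 (adjusted p = 0.899).

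Cpt1b, the muscle-type form of the rate-setting carnitine palmitoyltransferase, had the lowest p of the 10 genes against controls. In Fe day 15 hippocampi its level was 89.0%, 86.0%, 75.7% and 87.3%, against 61.2%, 67.7%, 58.4% and 63.8% in controls. The groups did not overlap, a separation that 4.11% of all genes showed in that direction. Their means were 84.5% ± 5.97 and 62.8% ± 3.99 (SD, n = 4 each). The difference was 0.43 ± 0.14, or 1.34-fold, with an unadjusted p of 0.00855 and an adjusted p of 0.314 in limma, and 2.71% of all genes had a lower p. Within slides, Fe day 15 replicates 1, 2 and 3 exceeded the control of their slide by 0.39, 0.56 and 0.25. With slide as a fixed block the difference was 0.37 ± 0.17 (unadjusted p = 0.0656).

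The other days were more mixed for Cpt1b. Fe day 5 arrays were at 73.4%, 86.5%, 52.7% and 58.0%, on either side of the controls. Fe day 30 arrays were at 67.8%, 89.4%, 66.7% and 68.6%, where replicate 2 stood apart from 3 arrays close to the upper controls. The order of the means was Fe day 15, Fe day 30, Fe day 5 and control. A second Cpt1b probe was much dimmer, with a mean processed signal of 19.7 against 534, near the 16.6 of the dim Pdk4 probe. It differed by 0.23 ± 0.18 at Fe day 15 (unadjusted p = 0.231 in limma). It gave 0.27 ± 0.18 at Fe day 5, 0.23 ± 0.18 at Fe day 30 and −0.042 ± 0.18 for Fe day 15 against Fe day 5. It thus did not show Fe day 15 as the highest group, and which probe is nearer to the Cpt1b RNA was not tested.

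Cpt1a, the liver-type form that also predominates in astrocytes, was highest at Fe day 30. Its level was 94.3%, 83.5%, 82.8% and 67.9% in Fe day 30 hippocampi, against 76.6%, 64.8%, 68.4% and 62.4% in controls. Of the 4 Fe day 30 arrays, 3 exceeded every control, and the fourth lay among them. These are the same 3 arrays that were high in endothelial and pericyte markers, with Cpt1a at 0.48, 0.30, 0.29 and 0.0015 relative to the control mean on replicates 1 to 4, and the part of vascular RNA was not tested. The difference was 0.27 ± 0.12 (1.20-fold, unadjusted p = 0.0361, adjusted p = 0.633 in limma), and without Fe day 30 replicate 3, the array rich in choroid plexus markers, it was 0.26 ± 0.13 with an unadjusted p of 0.0634. At Fe day 5 the difference was 0.14 ± 0.12 and at Fe day 15 it was 0.056 ± 0.12. Cpt2, the inner-membrane partner, averaged 89.0% ± 2.28 at Fe day 5, 97.1% ± 8.77 at Fe day 15 and 98.6% ± 18.5 at Fe day 30, against 89.9% ± 5.75 in controls (SD, n = 4 each). Its differences from controls, −0.013, 0.11 and 0.12 at Fe days 5, 15 and 30, each had a standard error of 0.11.

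The enzymes of the mitochondrial spiral differed little between groups. Acadm and Acadl encode the medium-chain and long-chain acyl-CoA dehydrogenases of its first step, and Hadha a subunit of the trifunctional protein that carries out the later steps for long chains. Hadha was at 204%, 215%, 208% and 237% in Fe day 15 hippocampi, against 198%, 192%, 183% and 197% in controls. The groups did not overlap, a separation that 4.11% of all genes showed in that direction. The difference of 0.16 ± 0.077 had an unadjusted p of 0.0546 and an adjusted p of 0.44 in limma. A second Hadha probe, much dimmer with a mean processed signal of 21.1 against 1522, gave −0.044 ± 0.15. Acadl was at 732%, 893%, 1047% and 836% at Fe day 30, against 842%, 772%, 776% and 690% in controls (0.18 ± 0.11, unadjusted p = 0.125). Acadm was at 248%, 274%, 352% and 235% at Fe day 30, against 264%, 252%, 248% and 247% in controls (0.11 ± 0.12). The 95% intervals for Acadm against controls reached from −0.25 to 0.39 on the log2 scale at their outermost ends. They are not corrected for the number of genes and do not exclude larger differences.

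The Fe day 30 differences of Cpt2 and Acadm rested on 1 animal, and those of Acadl and Hadha were smaller without it. Fe day 30 replicate 3 was the highest of the 16 arrays for Cpt2 (126%), Acadm (352%) and Acadl (1047%), and it also had the highest choroid plexus signal and the second highest microglial signal. Without that array the Fe day 30 differences were −0.0049 ± 0.080 for Cpt2, −0.0061 ± 0.098 for Acadm, 0.090 ± 0.10 for Acadl and 0.079 ± 0.078 for Hadha. The median over the 10 genes at Fe day 30 was then 0.055 in place of 0.15. The part of choroid plexus or microglial RNA in these values was not tested. In whole hippocampus, more cells of a type and more RNA per cell cannot be told apart.

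**Figure D3:**
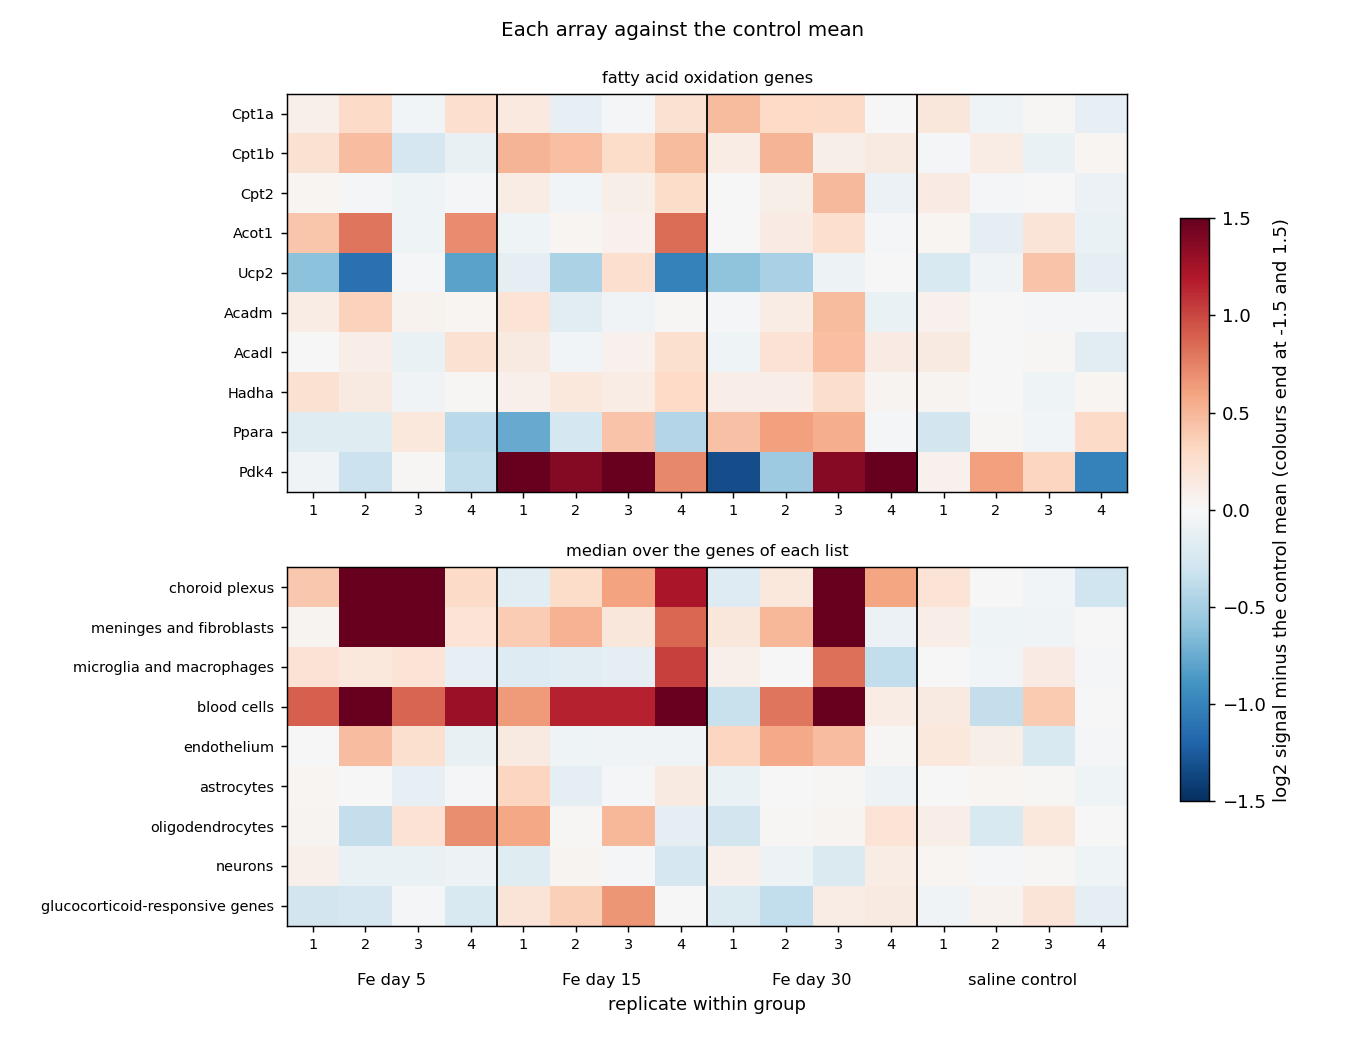
Log2 signal of each array minus the control mean, for the 10 genes (upper panel) and as the median over the genes of 9 lists of cell type markers and glucocorticoid-responsive genes (lower panel); columns are the 16 arrays by group and colours run from −1.5 to 1.5. Fe day 30 replicate 3 is the reddest column for Cpt2, Acadm and Acadl and 1 of 3 beyond the colour range for choroid plexus markers, and Acot1 is red on the arrays where Ucp2 is bluest.

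Acot1 encodes an acyl-CoA thioesterase that releases fatty acids from their CoA esters and is a known PPAR alpha target in rodent liver. In Fe day 5 hippocampi it was at 75.7%, 99.0%, 53.9% and 92.7%, against 57.9%, 51.7%, 64.7% and 52.9% in controls. Of the 4 Fe day 5 arrays, 3 exceeded every control, and replicate 3 lay within the control range. The difference was 0.47 ± 0.20 (1.38-fold, unadjusted p = 0.0361, adjusted p = 0.475 in limma). Fe day 15 replicate 4, at 101%, was the highest of the 16 arrays, and the other 3 Fe day 15 arrays were at 53.9% to 59.3%. Without that array the Fe day 15 difference was 0.011 ± 0.17, in place of 0.22 ± 0.20. Fe day 30 arrays ran from 55.4% to 67.3%, against 51.7% to 64.7% in controls. With slide as a fixed block the Fe day 5 difference was 0.32 ± 0.26 (unadjusted p = 0.244). Acot1 lies beside the closely related Acot2, Acot3, Acot4 and Acot5, and cross-binding of their RNA to its probe was not tested. Acot2 was at 72.2%, 92.6%, 71.6% and 65.8% at Fe day 5, against 64.3%, 61.1%, 66.3% and 64.7% in controls (0.23 ± 0.12, adjusted p = 0.499). Acot4 was at 32.5%, 33.4%, 23.2% and 30.4% at Fe day 5, against 37.2%, 34.7%, 40.0% and 35.3% in controls (−0.31 ± 0.16, adjusted p = 0.498).

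Ucp2 encodes an inner-membrane carrier linked to the handling of reactive oxygen species, and its differences ran the other way from those of Acot1. In Fe day 5 hippocampi it was at 25.0%, 17.5%, 37.4% and 21.9%, against 32.4%, 36.8%, 51.3% and 34.5% in controls. All 4 Fe day 5 arrays were below the control mean and 3 were below every control, with replicate 3 among the controls. The difference was −0.64 ± 0.27 (0.642-fold, unadjusted p = 0.0339, adjusted p = 0.474 in limma). The Fe day 15 arrays were at 34.8%, 27.4%, 45.3% and 18.8%, and the Fe day 30 arrays at 25.1%, 27.1%, 36.1% and 38.3%. Their differences were −0.34 ± 0.27 and −0.29 ± 0.27.

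The slide structure bears on Ucp2 at Fe day 5, because only replicate 4 of that group shared a slide with a control. That array differed from its slide's control by −0.565 on the log2 scale. With slide as a fixed block, the Fe day 5 difference of Ucp2 was −0.20 ± 0.29 with an unadjusted p of 0.495. With slide as a random block, whose estimated correlation within slides was 0.0686, it was −0.60 ± 0.27 with an unadjusted p of 0.0432. Without Fe day 5 replicates 2 and 3 and Fe day 30 replicate 3, the arrays rich in choroid plexus or meningeal markers, the Fe day 5 difference was −0.70 ± 0.31 for Ucp2 and 0.57 ± 0.21 for Acot1 (unadjusted p = 0.0423 and 0.0228, adjusted p = 0.547 and 0.533 in limma). Ucp2 was printed in 10 spots, of which 22 of 160 over all arrays carried an outlier mark and were left out.

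Acot1 and Ucp2 were opposite at their extremes. The 4 arrays with the highest Acot1, Fe day 15 replicate 4 and Fe day 5 replicates 2, 4 and 1, had Ucp2 at 18.8%, 17.5%, 21.9% and 25.0%, which are the 4 lowest Ucp2 values of the 16. Fe day 5 replicate 3, with Acot1 at 53.9%, had Ucp2 at 37.4%. The opposition was not seen throughout: control replicate 3 was the highest control for both genes (Acot1 64.7%, Ucp2 51.3%), and Fe day 30 replicate 3 had the highest Fe day 30 Acot1 (67.3%) with Ucp2 at 36.1%. Pearson's r of their log2 signals over the 16 arrays, which share slides and groups, was −0.735, a description. These 4 arrays lay on slides 1, 5 and 6, and slide 5 held both Fe day 15 replicate 4 and Fe day 5 replicate 1. Replicate 2 of Fe day 5 was rich in meningeal markers and replicate 4 was not. Among the genes with log2 signals closest to Ucp2 were Lman2 (r 0.902) and Cebpb (0.866). Being picked by that correlation, they give no separate evidence through their own differences. Cebpb, a transcription factor gene of inflammation and fat metabolism, differed by −0.85 ± 0.35 at Fe day 5 (unadjusted p = 0.0282, adjusted p = 0.473 in limma). Lman2, a cargo receptor gene, differed by −0.17 ± 0.074 (adjusted p = 0.478).

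**Figure D4:**
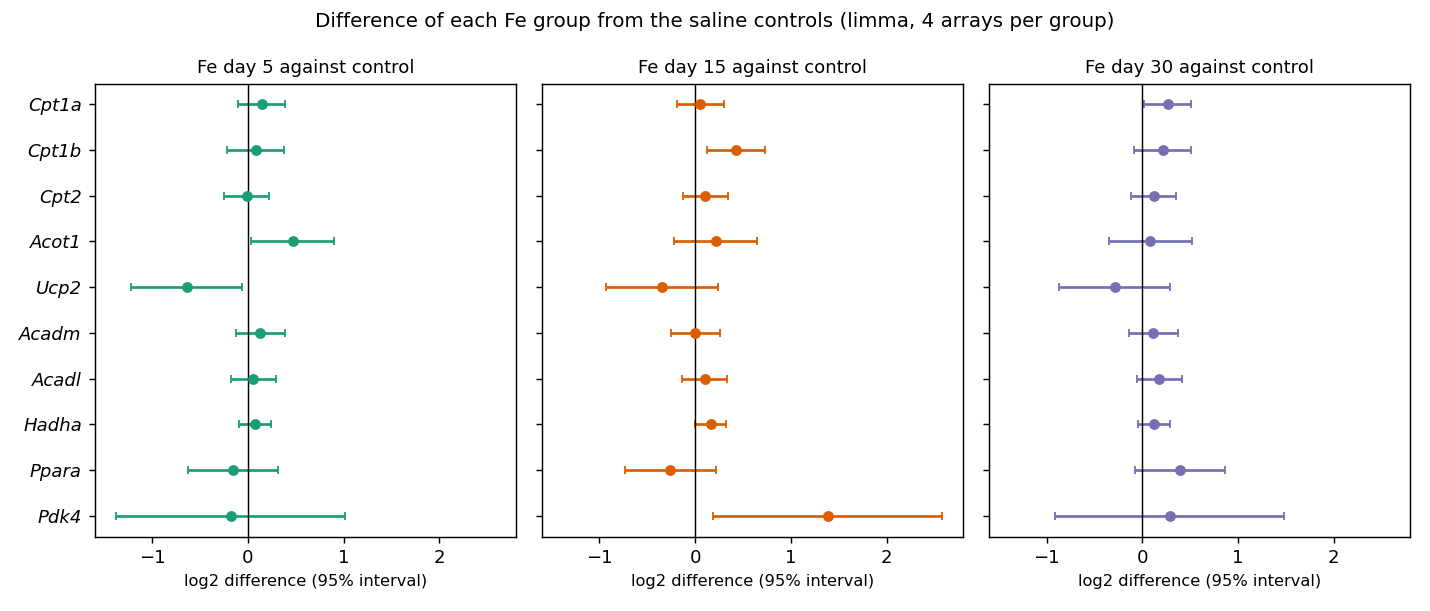
Difference of each Fe group from the saline controls for the 10 genes, on the log2 scale with 95% intervals from limma (horizontal axis, 0 marked), 4 arrays per group. The intervals lie clear of 0 for Acot1 and Ucp2 at Fe day 5, Cpt1b and Pdk4 at Fe day 15 and Cpt1a at Fe day 30, before any correction for the number of genes; Pdk4 was kept by its Fe day 15 arrays only.

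Other genes of the pathway were followed in lists of 90 genes in all, of which 72 were tested. None passed the adjusted threshold against controls. At an unadjusted p of 0.05, 1 was higher and 3 lower at Fe day 5, 5 higher and 3 lower at Fe day 15, and 1 higher and 1 lower at Fe day 30. The shares of all genes past that threshold were 10.3%, 11.5% and 7.77%, so that none of these counts of 4, 8 and 2 in 72 stands above the background. Their median differences were −0.0043, −0.016 and −0.014, near those of all genes.

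Among 12 tested genes of peroxisomal oxidation, which shortens very long chains, Hsd17b4 had the lowest F-test p (0.00876, adjusted 0.509). It encodes the bifunctional enzyme of that pathway. Hsd17b4 was at 161%, 149%, 145% and 156% in Fe day 15 and at 151%, 165%, 139% and 137% in Fe day 5 hippocampi, against 129%, 116%, 134% and 117% in controls. The Fe day 15 arrays did not overlap the controls, a separation that 4.11% of all genes showed in that direction. The difference was 0.30 ± 0.078 at Fe day 15 (unadjusted p = 0.00169, adjusted p = 0.211 in limma). It was 0.25 ± 0.078 at Fe day 5 (adjusted p = 0.473) and 0.17 ± 0.078 at Fe day 30 (adjusted p = 0.64). Crot, the peroxisomal carnitine octanoyltransferase gene, was at 103%, 126%, 132% and 115% at Fe day 15, against 136%, 180%, 142% and 133% in controls (−0.31 ± 0.13, adjusted p = 0.387). Pex11a, a peroxisome division gene, differed by 0.51 ± 0.20 at Fe day 15 (adjusted p = 0.371), where replicate 3 was at 93.7% and the others at 41.8% to 54.7%, against 39.2% to 44.8% in controls.

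Of 17 other mitochondrial beta-oxidation genes tested, none was higher and 1 was lower at Fe day 15 at an unadjusted p of 0.05, and none at the other times. That gene was Etfa, a subunit of the electron carrier that serves the acyl-CoA dehydrogenases (−0.22 ± 0.099, adjusted p = 0.416 in limma). Hadh, the short-chain hydroxyacyl-CoA dehydrogenase gene, differed by −0.13 ± 0.088 and Slc22a5, the carnitine importer gene, by −0.10 ± 0.15 at Fe day 15. Of 11 tested regulators, 0 were higher and 3 lower at Fe day 5 at an unadjusted p of 0.05, beside 10.3% of all genes. Their median difference was −0.13, beside −0.017 for all genes. Their median level per array was −0.24 to −0.10, against −0.053 to 0.043 in controls, with no overlap. All were set against the same controls, so these are not separate observations, and the list was not tested as a set. Ppard, encoding PPAR delta, was at 4.15%, 3.69%, 4.20% and 3.59% in Fe day 5 hippocampi, against 5.21%, 4.34%, 4.60% and 4.80% in controls (−0.28 ± 0.10, adjusted p = 0.473). Rxrb, a partner receptor of the PPARs, differed by −0.22 ± 0.086 at Fe day 5 (adjusted p = 0.473) and by −0.23 ± 0.086 at Fe day 30 (adjusted p = 0.63). Ppargc1b, a coactivator gene, differed by 0.35 ± 0.12 at Fe day 15 (unadjusted p = 0.0133, adjusted p = 0.339).

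Of 10 tested genes for uptake and activation of fatty acids, 0 were above and 10 below the control mean at Fe day 30. Their median was −0.087 beside −0.013 for all genes, and none passed an unadjusted p of 0.05. All 10 were set against the same 4 controls, so their directions are not separate observations. Their median level per array, relative to the control mean, overlapped: −0.18 to −0.031 at Fe day 30, against −0.052 to 0.039 in controls. Fabp5, a fatty acid-binding protein gene, Acsbg1, an acyl-CoA synthetase gene known from astrocytes and neurons, and Acsl4, another synthetase gene, differed by −0.12 ± 0.097, −0.12 ± 0.084 and −0.033 ± 0.11 at Fe day 30. Among 6 tested genes of pyruvate dehydrogenase control, Pdk4's relatives Pdk1 and Pdk3 differed by −0.044 ± 0.16 and −0.13 ± 0.064 at Fe day 15, and Pdhb, a subunit of the enzyme itself, by 0.16 ± 0.15. Acot7, the main brain thioesterase gene among 6 tested, differed by 0.17 ± 0.11 at Fe day 15 (adjusted p = 0.551). Of 4 tested ketone body genes, 2 were higher and 1 lower at Fe day 15 at an unadjusted p of 0.05, beside 11.5% of all genes. The directions were mixed, 0 of the 4 passed the adjusted threshold, and the list was too short for the naming rule. The 3 tested genes each among other PPAR targets and among uncoupling proteins held none past an unadjusted p of 0.05 against controls.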

How the data were processed

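RNA from 16 rats was hybridised to Agilent 1-colour arrays. The arrays were read with Agilent Feature Extraction 9.5, per the submitters' processing notes. The deposited scanner files give, per the file headers, a background-subtracted and spatially detrended processed intensity on a linear scale. The series table deposited beside them holds the same intensity values in 100% of entries (relative tolerance 1e-06).

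Processed signals of 43379 transcript spots were placed on the log2 scale minus each array's 75th percentile. Outlier-marked spots were left out, spots of a probe were averaged, and probes well above background throughout at least 1 group were kept (30548 probes, 26565 genes, 9588 with a symbol from RefSeq GRCr8), with the probe of highest mean signal for each gene. No spot was saturated. A one-way model of all 16 arrays (4 per group, 12 residual degrees of freedom) was fitted with limma 3.58.1 in R 4.3.3, with two-sided tests and Benjamini-Hochberg adjustment over 26565 genes. Precision is limited by the number of arrays, and the median standard error of a difference was 0.14 on the log2 scale. On simulated data the same fit called 40% of genes changed by 0.5 and 73% of those changed by 1 (log2) at Fe day 15 against control, over 26565 genes. The simulation drew independent normal values with each gene's fitted spread and changed 100 genes by each size. It held no slide effect, no array rich in choroid plexus or meningeal RNA and no correlation between genes. These shares therefore do not give the power on the real arrays.

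The genes described and the gene lists were chosen with earlier results of these data known. Genes named beyond the 10 were the 3 of lowest F-test p in each pathway list with at least 5 tested genes, and the 3 named genes most correlated with each of the 3 of the 10 with the widest range of group means. One gene that this rule selects is not reported here. Same-numbered replicates showed no clear pairing: 5 of 24 pairs had a correlation over 0.1. The mean correlation was −0.0034 for the same number and 0.0029 for other numbers. For 8 of the 16 arrays, the best match in another group had the same number. Alternatives covered normalization, background correction, probe filters, slide, replicate number, array weights and leaving out arrays. The motif search used RefSeq promoters, in Python 3.11.15.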

Additional observations from a re-analysis of the deposited data

Results flagged for a closer look

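For each of the 10 genes and each of the 4 groups, 40 groups of 4 arrays in all, the gap between the outermost array and its neighbour was set against the range of the group. Dixon's 95% critical value for 4 samples, which chance passes in about 1 group in 20, was passed in 2 groups.

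Cpt1b on the Fe day 30 array of replicate 2 was at 89.4% of the array's 75th percentile, with the other 3 arrays at 66.7% to 68.6% and a gap of 0.904 of the range. Acot1 on the Fe day 15 array of replicate 4 was at 101%, with the others at 53.9% to 59.3% and a gap of 0.847 of the range. The Fe day 15 array also had the highest microglial marker signal of the 16, and the part of this in its Acot1 value was not tested.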

How the results depend on the processing

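Under 27 other settings, none of the 10 genes passed the adjusted threshold in any comparison, and their lowest adjusted p was 0.126 (Cpt1b at Fe day 15 with array weights). Of 1614 values of the 10 genes, 1604 moved by less than the spread between replicates and 10 by more, with no called value to reverse. Many of the 1604 could not move. The probe filters, the replicate block, the compared groups alone and leaving out an array of a group outside the comparison do not change a gene's difference. Averaging probes changes it only for genes with a second probe. The count is therefore no measure of how stable the differences are. With normexp the Pdk4 differences were 0.25 (Fe day 15 against control), 0.45 (against Fe day 5) and −0.15 (Fe day 30 against Fe day 15). It gave Ppara 0.24 for Fe day 30 against Fe day 15. Slide as a fixed block gave Cpt1a −0.023, Ucp2 −0.20 and Pdk4 0.83 at Fe day 5 against control, and Cpt1a 0.10 and Pdk4 0.62 for Fe day 15 against Fe day 5. The mean over both probes gave Hadha 0.059 at Fe day 15. The filter that needs all 16 arrays above background left no Pdk4 value.

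Counts over all genes were 0 at Fe day 5, 0 at Fe day 15 and 2 at Fe day 30 against control, and they moved with the setting; the cause was not tested. At Fe day 30 the count was 8 with quantile normalization, 25 with array weights, and 0 with slide as a fixed block, with the compared groups alone, or without the 3 arrays rich in choroid plexus or meningeal markers. At Fe day 15 it was 184 with array weights, 2 with the compared groups alone, and 1 with no filter, with the replicate block, or without those 3 arrays. At Fe day 5 it was 1 with no filter. Fe day 15 against Fe day 5 gave 2 with array weights in place of 0, and Fe day 30 against Fe day 5 gave 1 with the compared groups alone. The F-test gave 1 with quantile normalization, 1 with no filter and 17 with array weights, in place of 0. Leaving out 1 array at a time gave 0 to 9 genes at Fe day 30, 0 to 10 at Fe day 15, 0 to 13 for Fe day 15 against Fe day 5 and 0 to 2 in the F-test. The highest counts came without Fe day 5 replicate 4 (9) and without Fe day 15 replicate 4 (10 and 13). The replicate block, with numbers that showed no clear pairing of the animals, moved the unadjusted p of Ucp2 at Fe day 5 to 0.00907 and that of Cpt1b at Fe day 15 to 0.00188 in limma. It called none of the 10.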
